A study of Mus musculus with 12 samples.

Results

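Fibrillar collagen chains and the proteins that modify, fold and trim them were followed through single-cell RNA sequencing of mouse tracheal allografts, native tracheas and spleens. The set holds 10 of the 31053 genes in the count tables, picked by name from knowledge of collagen assembly: the chain genes Col1a1, Col1a2, Col3a1, Col5a1 and Col5a2, and the processing genes Serpinh1, Pcolce, P4ha1, P4ha2 and Plod2. The choice was made with earlier results of these data known. All 10 genes were matched by symbol in the 3 tables. Their levels were read in mesenchymal cells and in C1q macrophages, with lymphocytes as a background class that should lack collagen.

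The study deposited 12 samples, 4 from each of the 3 sources, prepared with 10x Chromium 3' chemistry, version 3. The labels describe the allograft and native trachea cells as mesenchymal progenitors and the spleen cells as splenocytes. Strain, age, the pairing of donor and recipient, time after transplantation and any treatment are not given in the sources used here. Each source had 1 matrix with no map from cells to its 4 samples, so each source was a single pooled library, no difference between sources has a replicate check, and no p-value is given. Counts of unique molecular identifiers (UMIs) are given as CPM, scaled to the total UMIs of the summed cells, and a difference of 2-fold or more is called higher or lower. Intervals are 95% exact intervals that cover counting error only, and UMIs are not scaled by transcript length.

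Type I collagen is a triple helix of Col1a1 and Col1a2 chains, type III is made of Col3a1 chains alone, and type V, of Col5a1 and Col5a2 chains, helps to start and to limit the width of fibrils. New chains are hydroxylated on proline and lysine in the endoplasmic reticulum, held by the collagen chaperone HSP47, the product of Serpinh1, secreted, and trimmed at both ends before they join fibrils. Fibroblasts are the main source of these fibrils in airway connective tissue, and their deposition is a known feature of airway narrowing after transplantation.

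After filtering, 3864 allograft, 4115 native and 4570 spleen cells were kept, with median UMIs per cell of 4965, 6526 and 4429. Between 4 and 7 cell barcodes were shared by any pair of libraries. Although labelled as mesenchymal progenitors, the trachea libraries held mostly C1q macrophages, lymphocytes and neutrophils. The mesenchymal gate (10 or more UMIs of Col1a1, Col1a2 and Col3a1 together, and no Ptprc, the pan-leukocyte marker CD45) took 41 allograft cells (1.06% of cells, 0.762 to 1.44%) and 888 native cells (21.6%, 20.3 to 22.9%), and 0 of 4570 spleen cells, which allows a share of up to 0.0656%. C1q macrophages, with 10 or more UMIs of the complement genes C1qa, C1qb and C1qc, numbered 1784 in the allograft, 1604 in native trachea and 97 in spleen. The gated mesenchymal cells carried all 9 fibroblast markers, which summed to 14281 CPM in the allograft and 13239 CPM in native trachea. The proteoglycan gene Dcn stood at 6497 CPM in the allograft and 4861 CPM in native trachea, and Lum at 2041 and 879 CPM. Pdgfra, Pdgfrb and Col6a1 went the other way, at 117, 104 and 1105 CPM in the allograft and 347, 183 and 2331 CPM in native trachea.

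Promoters of 7 of the 10 genes were found in the RefSeq table (GRCm38.p6, the build called mm10), as windows from 250 bases before the annotated start to 50 bases after it. Those of Col1a1, Col5a2 and Plod2 were not among them. The 5 below belong to chain genes that were higher in allograft mesenchymal cells (Col1a2, Col3a1), to the chaperone gene that was not (Serpinh1), and to the hydroxylase genes that macrophages also carried (P4ha1, P4ha2). Capitals mark CCAAT or its reverse complement ATTGG, and ACGTG, the core of a hypoxia response element, or its reverse complement CACGT. All windows are written 5′ to 3′ along the gene's own strand.
Col1a2 (chr6:4505368-4505667, plus strand): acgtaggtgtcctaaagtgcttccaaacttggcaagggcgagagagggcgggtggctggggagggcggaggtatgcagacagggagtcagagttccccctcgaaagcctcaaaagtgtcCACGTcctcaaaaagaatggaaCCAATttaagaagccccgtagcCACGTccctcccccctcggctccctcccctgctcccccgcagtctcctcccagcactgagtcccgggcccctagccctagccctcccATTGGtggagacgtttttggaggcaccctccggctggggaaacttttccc
Col3a1 (chr1:45311288-45311587, plus strand): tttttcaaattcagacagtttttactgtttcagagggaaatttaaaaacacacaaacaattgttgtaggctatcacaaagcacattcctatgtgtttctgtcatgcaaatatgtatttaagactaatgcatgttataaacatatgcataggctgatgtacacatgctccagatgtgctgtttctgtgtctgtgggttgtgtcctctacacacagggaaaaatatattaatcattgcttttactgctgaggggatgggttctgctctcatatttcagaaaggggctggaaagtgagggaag
Serpinh1 (chr7:99353190-99353489, minus strand): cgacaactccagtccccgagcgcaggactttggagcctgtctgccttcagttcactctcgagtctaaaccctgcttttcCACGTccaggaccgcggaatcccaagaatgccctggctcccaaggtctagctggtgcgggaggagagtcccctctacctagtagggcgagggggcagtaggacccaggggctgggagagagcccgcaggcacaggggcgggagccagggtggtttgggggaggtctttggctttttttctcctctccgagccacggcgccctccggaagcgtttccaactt
P4ha1 (chr10:59323046-59323345, plus strand): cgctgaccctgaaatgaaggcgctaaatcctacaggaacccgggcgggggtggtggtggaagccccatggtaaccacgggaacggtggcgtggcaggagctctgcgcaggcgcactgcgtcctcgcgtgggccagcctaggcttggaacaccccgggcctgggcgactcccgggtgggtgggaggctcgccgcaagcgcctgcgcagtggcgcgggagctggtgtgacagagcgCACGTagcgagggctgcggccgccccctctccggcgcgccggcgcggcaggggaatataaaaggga
P4ha2 (chr11:54100674-54100973, plus strand): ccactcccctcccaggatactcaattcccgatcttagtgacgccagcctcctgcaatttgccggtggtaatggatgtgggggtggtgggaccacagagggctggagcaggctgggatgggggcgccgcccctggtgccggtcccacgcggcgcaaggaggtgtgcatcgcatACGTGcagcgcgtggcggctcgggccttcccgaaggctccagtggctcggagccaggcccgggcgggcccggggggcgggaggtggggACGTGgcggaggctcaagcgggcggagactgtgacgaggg
ACGTG was found on either strand in 5 of the 7 windows, those of Col1a2, Col5a1, Serpinh1, P4ha1 and P4ha2, and in 19.6% of the 32851 promoter windows of the table. Col1a2 and P4ha2 held 2 matches each. CCAAT was found only in Col1a2, at positions 142 and 251 from the 5′ end, against 37.4% of all windows. GAANNTTC, a minimal heat shock element, was in none of the 7 and in 7.86% of all windows. The Col3a1 and Pcolce windows held no match to any of the motifs, and no 2 matches overlapped.

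In both tracheas most UMIs of the chain genes lay in the mesenchymal class. This class made 1.06% of allograft cells and 21.6% of native cells, so its shares of UMIs are not levels per cell. It held 80.9% of the Col1a1 UMIs of the allograft library and 93.2% of those of the native library, shares that the gate on Col1a1, Col1a2 and Col3a1 sets in part. For Col5a1, which the gate does not read, they were 78.4% and 91.3%. For P4ha1, a catalytic subunit of prolyl 4-hydroxylase, the class held 5.32% in the allograft and 56.2% in native trachea, and C1q macrophages held 69.5% in the allograft and 28.2% in native trachea. P4ha2, the second such subunit, was split in the allograft, with 34.1% of UMIs in mesenchymal cells and 32.8% in macrophages, against 86.8% and 4.71% in native trachea. Plod2, a lysyl hydroxylase that prepares collagen for crosslinks, followed with 39.7% of UMIs in allograft mesenchymal cells and 89.2% in native ones.

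**Figure D1:**
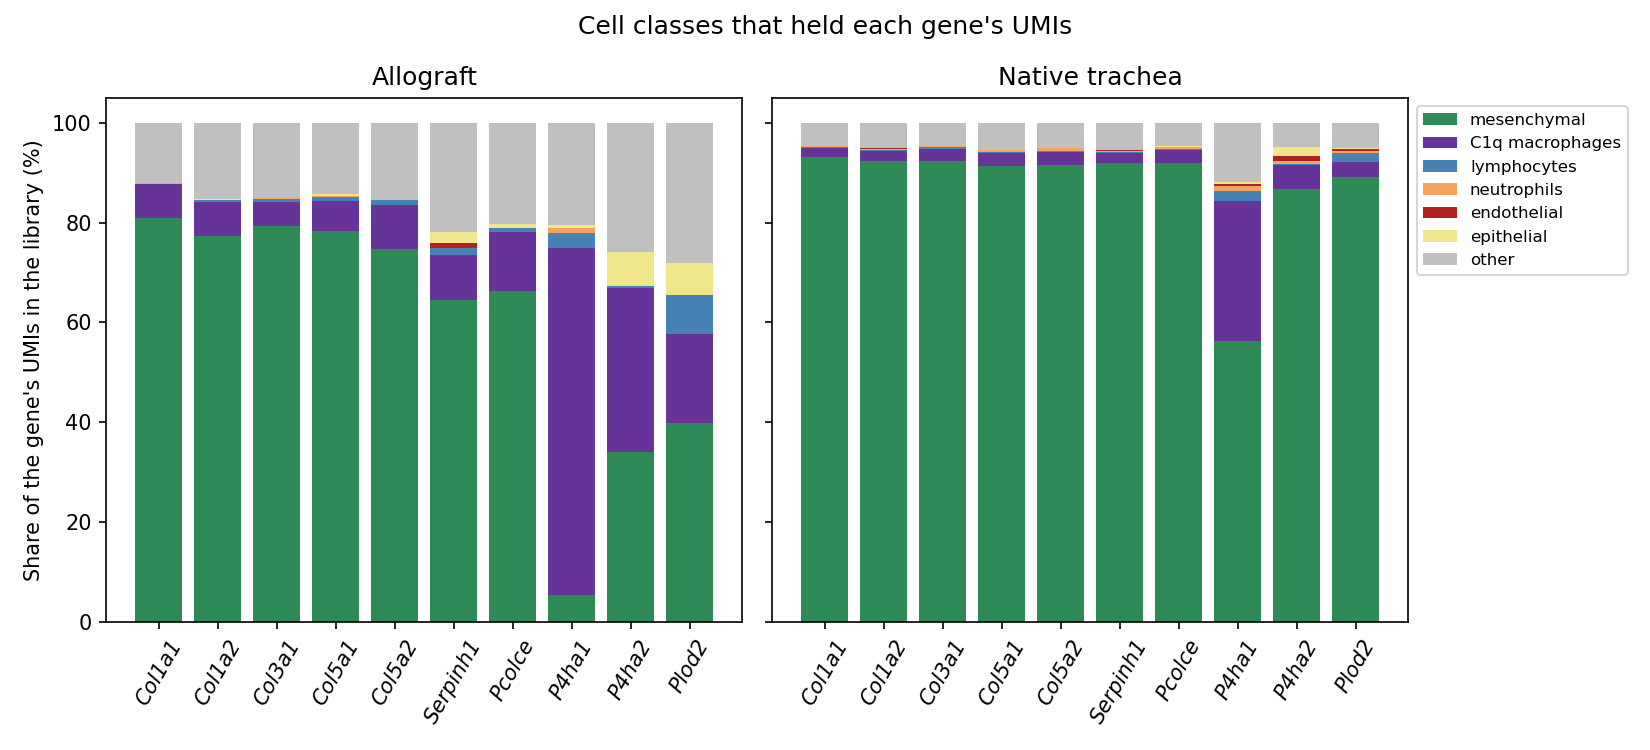
Share of each gene's UMIs (%) that lay in each cell class, for the allograft library on the left and the native library on the right. Mesenchymal cells hold most chain gene UMIs in both, from 74.8% for Col5a2 to 80.9% for Col1a1 in the allograft, whereas P4ha1 UMIs of the allograft lie mainly in C1q macrophages.

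Cells outside the named classes held 12.1 to 15.4% of the chain UMIs of the allograft and 4.59 to 5.33% of those of native trachea. In this remainder 17 allograft and 40 native cells had 10 or more collagen UMIs, and they held 93.0% and 91.9% of its collagen. They missed the mesenchymal gate because they carried Ptprc.

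Summed over all cells, every chain gene was at least 3-fold lower in the allograft library, in which mesenchymal cells were scarce. Col1a1 stood at 305 CPM in the allograft and 1162 CPM in native trachea, a ratio of 3.81-fold lower (3.72 to 3.91). Serpinh1 was 14.3-fold lower (13.6 to 15.1), at 60.1 CPM in the allograft and 862 CPM in native trachea. Pcolce, the enhancer of the proteinase that removes the C-terminal propeptide, was 13.7-fold lower (12.5 to 14.98). P4ha1 stood apart, at 59.0 CPM in the allograft and 64.6 CPM in native trachea. In these sums 9 of the 10 genes were called lower and 0 higher, where 17% and 6.45% of the 14361 genes counted were. Fewer cells of a type and less RNA per cell cannot be told apart in such sums.

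Within mesenchymal cells the order was reversed for the chains. The type I chains, Col1a1 (chr11:94936224-94953042, plus strand, mm10) and Col1a2 (chr6:4504814-4541544, plus strand), were 3.101-fold (3.02 to 3.19) and 2.75-fold (2.68 to 2.83) higher in the allograft. Over the summed UMIs, Col1a1 stood at 10704 CPM in the 41 allograft cells and 3451 CPM in the 888 native cells, and Col1a2 at 10006 CPM and 3638 CPM. Col3a1 (chr1:45311538-45349706, plus strand) was 3.67-fold higher (3.58 to 3.76), at 12825 CPM in allograft cells and 3495 CPM in native cells. Over single cells, Col1a1 had a lowest, median and highest level of 0, 11219 and 38377 CPM in the allograft, and of 0, 3027 and 18910.5 CPM in native trachea. For Col3a1 these were 0, 10379.8 and 40414 CPM in the allograft, and 129.9, 3095 and 16548 CPM in native trachea. The ranges overlapped for both genes, and the allograft cells spread more widely.

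The type V chains followed. Col5a2 (chr1:45374321-45503282, minus strand) was 3.01-fold higher (2.79 to 3.24), at 1377 CPM in allograft cells and 458 CPM in native cells. Col5a1 (chr2:27886425-28039514, plus strand) was 2.04-fold higher (1.83 to 2.25), at 715 CPM and 351 CPM. That call rested on few cells: the 3 allograft cells highest for it held 41.7% of the class's Col5a1 UMIs, and without the 3 cells richest in the 10 genes the log2 ratio of Col5a1 was 0.45, against 1.03 with them. It was also under 2-fold with median-of-ratios scaling, at 0.97, and with the mean of per-cell CPM, at 0.92. Col1a1, Col1a2, Col3a1 and Col5a2 kept log2 ratios of 1.36, 1.25, 1.49 and 1.27 without those cells.

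The processing genes did not move as a group. Plod2 (chr9:92542223-92608428, plus strand) was 2.62-fold higher (2.14 to 3.17), at 208 CPM in allograft cells and 79.5 CPM in native cells. P4ha2 (chr11:54100095-54131665, plus strand) stood at 134 CPM in allograft cells and 69.8 CPM in native cells, a ratio of 1.94 (1.51 to 2.44) that missed the threshold. P4ha1 (chr10:59323296-59373304, plus strand) differed little, at 136 CPM and 116 CPM, with an interval of the ratio of 0.925 to 1.48. Single cells held few UMIs of these genes: Plod2 was at 0 in 12 of the 41 allograft cells and in 474 of the 888 native cells, with a median of 106.5 CPM in the allograft and 0 in native trachea. P4ha2 was at 0 in the same numbers of cells, and its median was 85.6 CPM in the allograft and 0 in native trachea.

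Serpinh1 (chr7:99345376-99353239, minus strand) ran the other way, at 1684 CPM in allograft cells and 2530 CPM in native cells, a ratio of 1.502-fold lower (1.41 to 1.60) that was not called. Its lowest, median and highest level over single cells was 0, 1434.5 and 5313 CPM in the allograft, and 0, 2398 and 7132 CPM in native trachea, so the ranges overlapped. Pcolce (chr5:137605103-137613784, minus strand) was likewise 1.39-fold lower (1.25 to 1.56), at 577 CPM and 803 CPM. Reads of Pcolce may be split with Fbxo24 and Gm36266, which overlap it in GENCODE M21 and are counted in the same tables. No gene in the tables overlaps any of the other 9.

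In all, 6 of the 10 genes were called higher in allograft mesenchymal cells and 0 lower, where 13% of the 10610 genes counted were called higher and 11.4% lower. The median log2 ratio of the 10 was 1.21, and that of all genes counted 0.06. The gate itself reads Col1a1, Col1a2 and Col3a1. With a gate that reads no gene of the set (6 or more UMIs of Col6a1, Col6a2, Dcn, Lum, Bgn and Fstl1, with leukocyte, endothelial and epithelial markers at 0), 46 allograft and 762 native cells were taken, and the log2 ratios of Col1a1, Col1a2, Col3a1 and Col5a1 were 1.38, 1.22, 1.64 and 0.86.

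**Figure D2:**
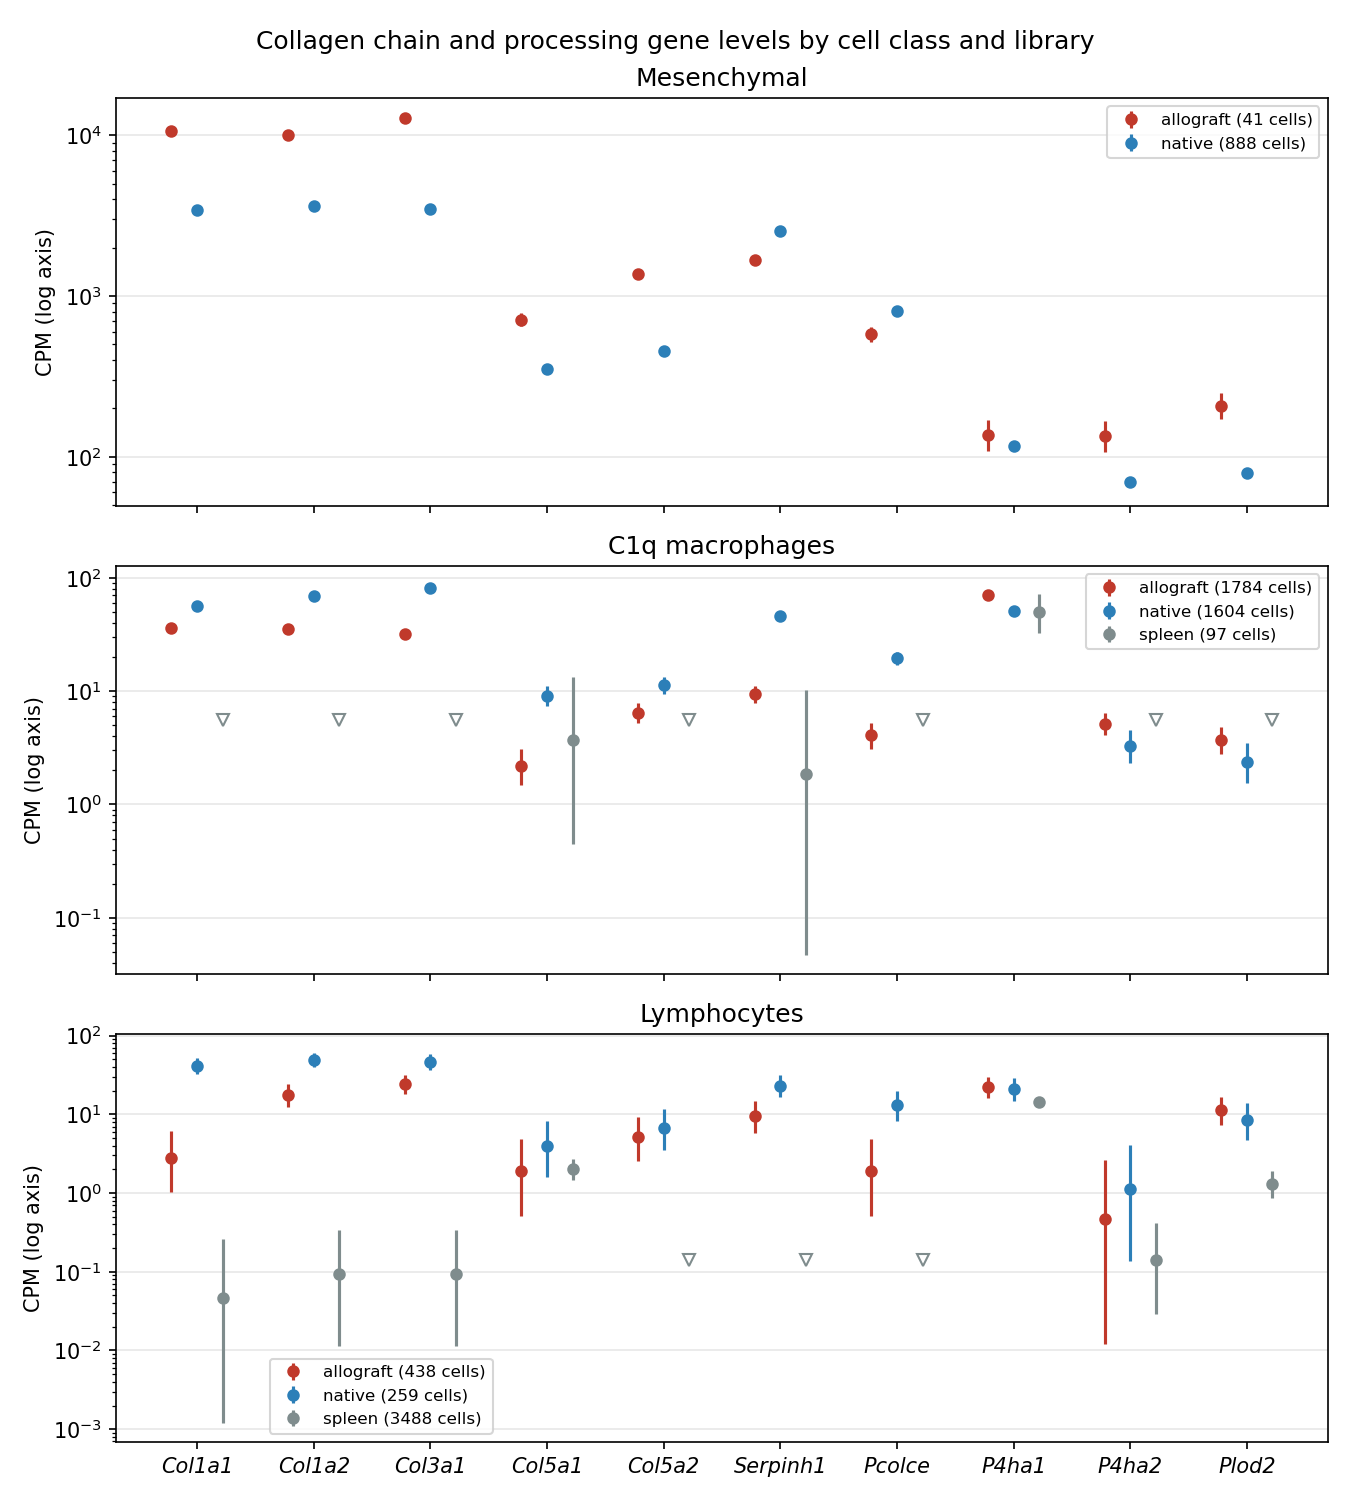
Level of each gene in CPM on a log axis, for mesenchymal cells, C1q macrophages and lymphocytes, with allograft, native and spleen libraries from left to right in each group. Bars are 95% Poisson intervals and open triangles mark the level that 3 UMIs would give where none was counted. The 5 chain genes and Plod2 are higher in allograft than in native mesenchymal cells, with Col1a1 at 10704 and 3451 CPM, and Col1a1 is at 36.2 and 56.0 CPM in the macrophages of the same libraries.

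The mesenchymal cells of the libraries differed in kind. Cartilage genes (3 or more UMIs of Col2a1, Acan and Comp together) were found in 23 of the 41 allograft cells and in 15 of the 888 native cells. The 9 chondrocyte markers summed to 5874 CPM in allograft cells and 152 CPM in native cells, with Matn1 at 0 in both. The 7 macrophage markers, all detected, summed to 330.3 CPM and 142 CPM, and 4 allograft and 11 native cells had 10 or more C1q UMIs. The lung fibroblast genes Inmt and Ces1d were at 0 in all 41 allograft cells, and were found in 497 and 619 of the native cells. Immediate early genes such as Fos and Jun, which tissue dissociation can raise, also differed: 5 of 9 were called lower in allograft mesenchymal cells and 0 higher, where 11.4% and 13% of all genes were, and the median log2 ratio of the 9 was -1.15. Their part in the differences of the chain genes was not tested, beyond the separate comparisons of cells with and without cartilage genes or Inmt and Ces1d.

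In cells without cartilage genes, 18 from the allograft and 873 from native trachea, the chain genes were further apart. Col3a1 was 6.86-fold higher (6.66 to 7.06), at 23766 CPM in allograft cells and 3465 CPM in native cells. Col1a1 was 5.21-fold higher (5.04 to 5.38), at 17783 CPM and 3413 CPM. Col1a2, Col5a2 and Col5a1 were 4.62-fold, 4.59-fold and 3.26-fold higher. Among single cells, Col1a1 had a lowest, median and highest level of 607, 18699 and 29816 CPM in the allograft, and of 0, 3026 and 14884 CPM in native trachea. The ranges overlapped, but the lower quartile of the allograft cells, 13259.8 CPM, lay above the upper quartile of the native cells, 4219 CPM.

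P4ha2 and Plod2 were 2.30-fold (1.58 to 3.18) and 2.31-fold (1.62 to 3.14) higher in these cells, with 36 and 40 UMIs in the allograft. Of the Plod2 UMIs 67.5% lay in 3 allograft cells, and with the gate that reads no gene of the set the log2 ratio of Plod2 was 0.49. Serpinh1 stood at 2206 CPM in allograft cells and 2539 CPM in native cells, and Pcolce at 838 CPM and 805 CPM, both within 1.2-fold. Thus 7 of 10 genes were called higher and 0 lower, where 16.5% and 14.6% of 10418 genes were. The median log2 ratio of the 10 was 1.46, against 0.09 over all genes. Restricting native cells to those with Inmt and Ces1d at 0 left 160, and the log2 ratios of Col1a1, Col3a1 and Serpinh1 were then 2.68, 2.80 and 0.09.

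Cells with 2 or more UMIs of the adventitial fibroblast genes Pi16 and Dpp4 together, and without cartilage genes, numbered 11 in the allograft and 570 in native trachea. In them Col3a1 was 7.30-fold higher (7.05 to 7.55) and Col1a1 5.23-fold higher (5.03 to 5.44). Serpinh1 was at 2434 CPM in allograft cells and 2649 CPM in native cells. The calls were those of the cells without cartilage genes: the 5 chains, P4ha2 and Plod2 were higher, where 18.4% of 9552 genes were called higher and 16.2% lower. Set against the 62 native cells of this kind with Inmt and Ces1d at 0, the same 7 genes were called higher, with Col1a1 6.38-fold, Col3a1 6.73-fold and Plod2 3.91-fold higher, where 10.7% of 3619 genes were called higher and 14.3% lower. The Plod2 call rested on few cells: 3 of the 11 allograft cells held 79.4% of its UMIs. Its median over cells was 58.1 CPM in the 11 allograft cells and 59.7 CPM in the 570 native cells. In the 62 native cells the Plod2 median was 0, with 37 of them at 0. In the remaining cells without cartilage genes and with neither Pi16 or Dpp4 nor Inmt or Ces1d past the gate, 7 from the allograft and 136 from native trachea, the 5 chains were called higher, where 11.7% of 4743 genes were called higher and 17.4% lower. Plod2 stood at 75.45 CPM in those allograft cells and 75.7 CPM in those native cells, on 6 and 74 UMIs.

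In cells with cartilage genes, 23 from the allograft and 15 from native trachea, 0 of the 10 genes was called, where 13.5% of the 2517 genes counted were called higher and 7.95% lower. Col1a1 stood at 6137 CPM in allograft cells and 5787 CPM in native cells, a ratio with an interval of 0.980 to 1.15. In these sums Pcolce was lowest relative to native cells, 1.67-fold lower (1.28 to 2.16). The sums rested on few cells: 3 cells held 61.1% of the Col1a1 UMIs in the allograft and 60.7% in native trachea. Over single cells the Col1a1 median was 532 CPM in the allograft, with 8 of 23 cells at 0. It was 3224 CPM in native trachea, with 1 of 15 cells at 0. The medians of the 5 chains together were 4137 CPM in the allograft and 10712 CPM in native trachea. The native cells of this kind were mostly called by Comp, which was found in all 15. Col2a1, the chain of cartilage collagen, was found in 10 of the 23 allograft cells and 2 of the 15 native cells. Without Comp in the gate only 5 native cells remained, and Col1a1, Pcolce and Plod2 then had log2 ratios of -1.08, -1.38 and -1.19.

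**Figure D3:**
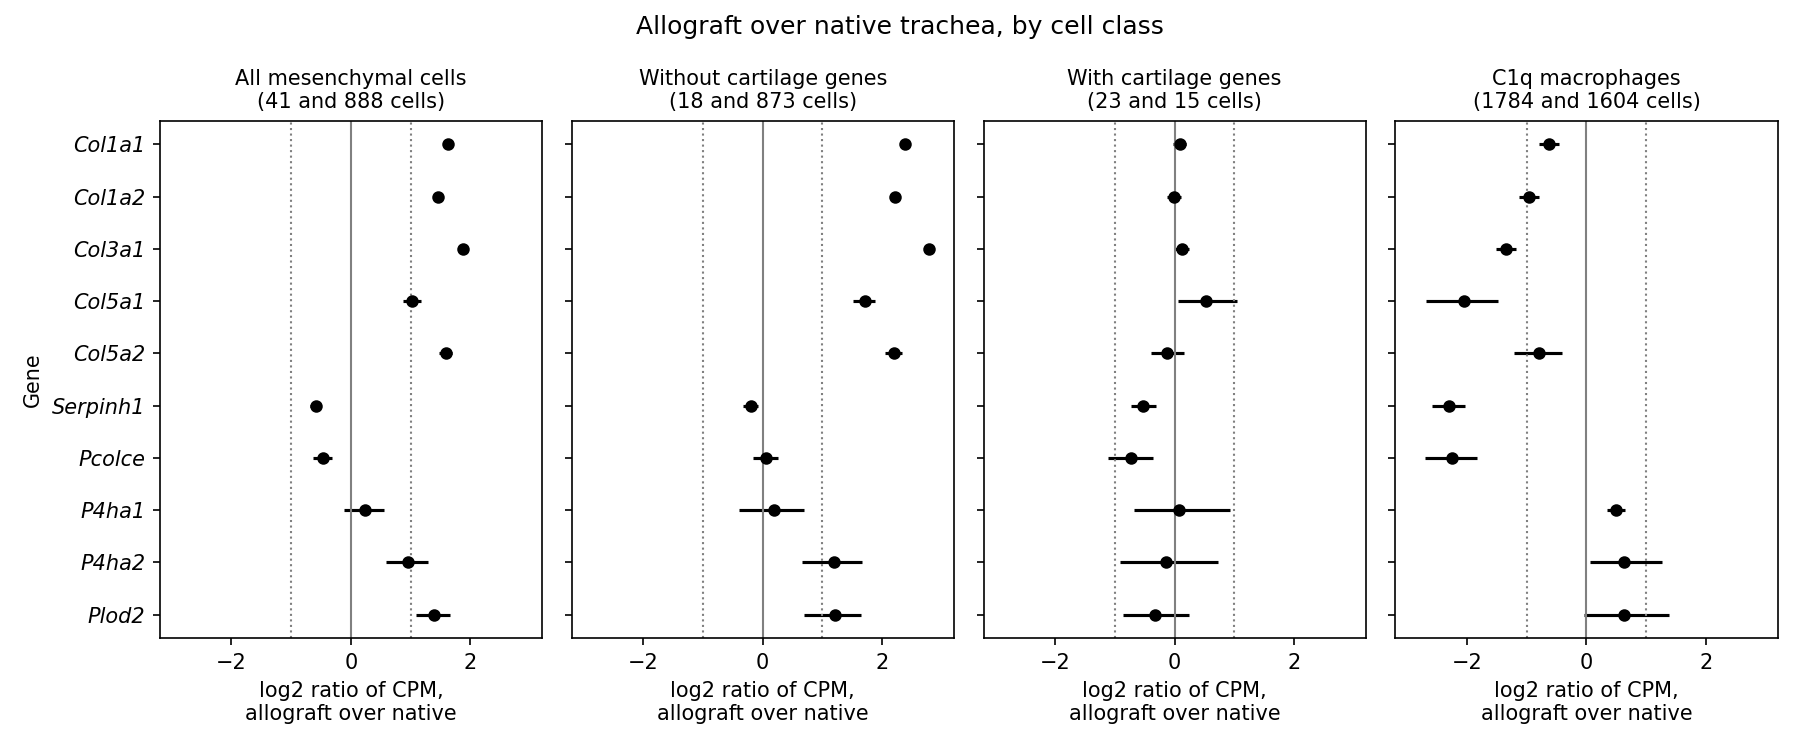
log2 ratio of CPM, allograft over native, for each gene in 4 sets of cells, with 95% counting intervals; dotted lines mark 2-fold. The chain genes lie right of the 2-fold line in all mesenchymal cells and further right in cells without cartilage genes (Col3a1 at 2.78), within 2-fold in cells with them (Col5a1 highest, at 0.53), and left of 0 in C1q macrophages (Col5a1 at -2.05), where Col1a1 turned to 0.20 with the mean of per-cell CPM.

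Transcripts of the type I chains were not always found in the same cell. Of mesenchymal cells with 10 or more Col1a2 UMIs, 5 of 36 in the allograft (13.9%, 4.67 to 29.5%) had no Col1a1 UMI, against 0 of 767 in native trachea, which allows a share of up to 0.480% by the exact interval. All 5 had cartilage genes, where they were 5 of 19 cells (26.3%, 9.15 to 51.2%). Native cells with cartilage genes gave 0 of 13, which allows up to 24.7%. These intervals overlap, so cells of like kind were too few to set the libraries apart. None of the 17 such allograft cells without cartilage genes lacked Col1a1. In 8 of the 36 allograft cells, and in 22 of the 767 native cells, Col1a1 UMIs numbered under 0.5 of those of Col1a2.

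Summed over cells, Col1a1 had 1.07 UMIs per Col1a2 UMI in the allograft and 0.949 in native trachea. Col3a1 had 1.20 UMIs per Col1a1 UMI in the allograft and 1.01 in native trachea, and 1.34 and 1.02 in cells without cartilage genes. In native cells with Pi16 or Dpp4 but no Inmt and Ces1d it was 1.34 as well, against 1.41 in the 11 allograft cells. Type V chains made 5.87% of the fibrillar UMIs of the set in allograft cells and 7.10% in native cells. Ratios between genes depend on how well each transcript is primed, so they compare libraries and not amounts of chain.

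**Figure D4:**
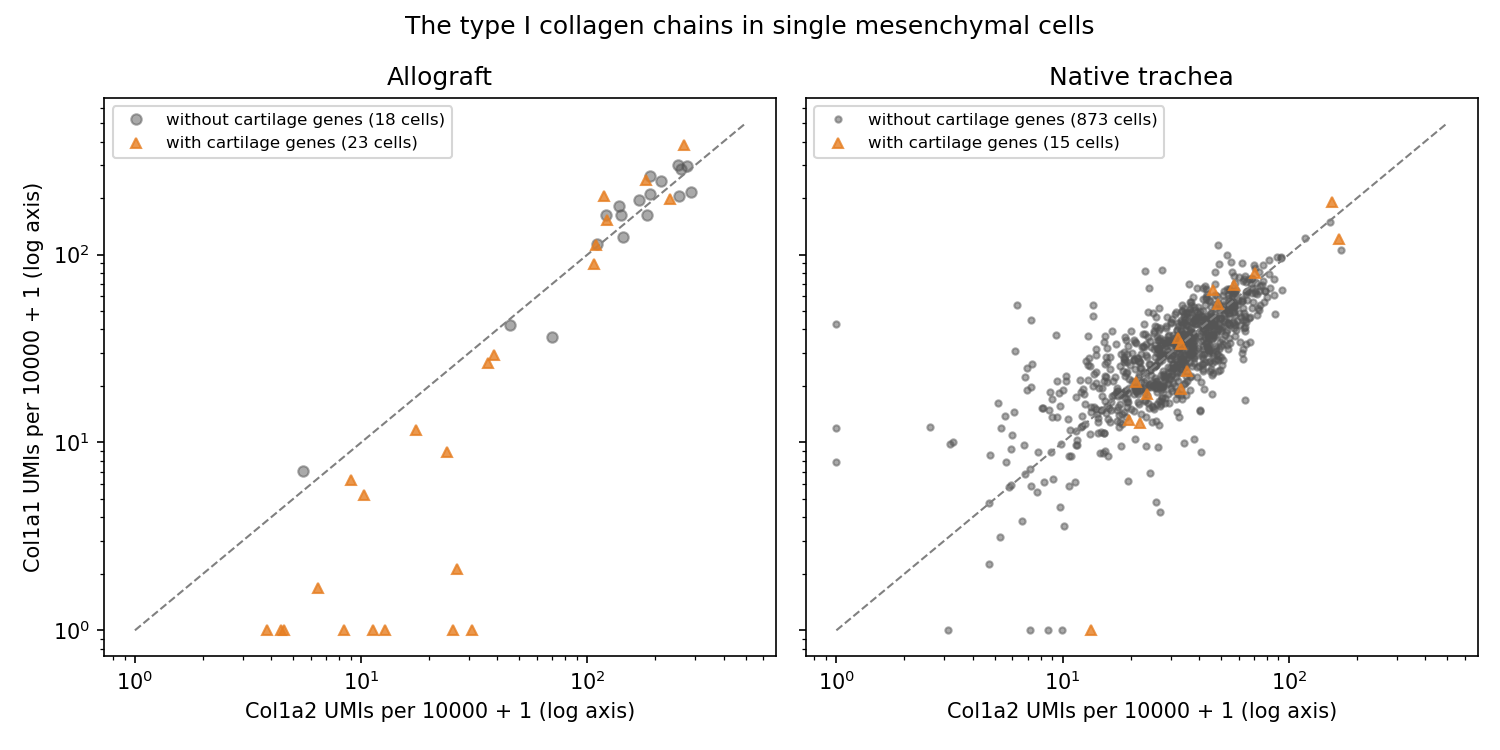
Col1a1 against Col1a2 in single mesenchymal cells, as UMIs per 10000 plus 1 on log axes, for the allograft on the left and native trachea on the right. Each point is a cell, triangles are cells with cartilage genes, and the dashed line marks equal levels. In the allograft a group of triangles lies on the floor of Col1a1, 5 of them with 10 or more Col1a2 UMIs.

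Levels across single cells were compared by correlation. Pearson's r of log2(UMIs per 10000 + 1) between Col1a1 and Col1a2 was 0.93 over 41 allograft cells and 0.73 over 888 native cells. These values describe cells that share 1 library and differ in depth, and the gate reads both genes. The allograft set also mixes 23 cells with cartilage genes and 18 without, at Col1a1 medians of 532 and 18699 CPM. The r values of the libraries therefore do not come from like sets of cells. The genes outside the set whose levels were most like the sum of the 10 in native cells, among 5025 genes found in at least 20% of them, were Col6a2 (r = 0.58), Sparc (0.57), Col6a1 (0.57), Col6a3 (0.53), Igfbp6 (0.53), Bgn (0.51), Serpinf1 (0.50), Eln (0.48), Fxyd6 (0.48) and Ctsk (0.48). In allograft cells the r values of Col6a2, Ctsk and Fxyd6 were 0.62, 0.70 and -0.15.

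Other genes of the collagen pathway, 54 in a list chosen by role, were counted beside the set. Of 50 with enough UMIs in mesenchymal cells, 18 were called higher in the allograft and 1 lower, where 13% and 11.4% of all genes were, and their median log2 ratio was 0.38, against 0.06 over all genes. The 6 highest ratios were those of Col2a1, Col11a2, Col11a1, P4ha3, Fmod and Fap. Col2a1 stood at 2673 CPM in allograft cells and 5.36 CPM in native cells, and Col11a2, a minor chain of cartilage fibrils, at 659 CPM and 2.21 CPM. P4ha3, the remaining prolyl 4-hydroxylase subunit, stood at 86.8 CPM and 2.63 CPM, and the fibroblast activation protein gene Fap at 140 CPM and 10.8 CPM. The 6 lowest were Pcolce2, Fkbp7, P3h3, Tmem38b, Mmp2 and Tnxb, of which Pcolce2, a relative of Pcolce, was 3.98-fold lower, at 80.0 CPM in allograft cells and 322 CPM in native cells.

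By role, all 5 further fibrillar chains counted were called higher, as were 3 of 5 crosslinking enzymes (Lox, Loxl3 and Loxl4), 2 of 15 genes of chain modification and folding and 0 of 7 of export, where 13% of all genes were. The difference between roles was not tested. Lox, which starts collagen crosslinks, stood at 400.1 CPM in allograft cells and 150.2 CPM in native cells. Bmp1, the proteinase that Pcolce enhances, stood at 245 CPM and 91.3 CPM. P4hb, the partner subunit of the prolyl 4-hydroxylases, stood at 529 CPM and 374 CPM and was not called.

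In cells without cartilage genes, Col2a1, Col11a1 and Col11a2 had too few UMIs to be counted and 15 of 45 pathway genes were called higher and 2 lower, where 16.5% and 14.6% of all genes were, with a median log2 ratio of 0.46 for the list. Among the higher ones was P4ha3, at 161 CPM in allograft cells and 2.35 CPM in native cells. The collagenase gene Mmp13 stood at 365 CPM in allograft cells and 0.748 CPM in native cells there, and Bmp1 at 417 CPM and 91.5 CPM. Pcolce2 was 3.86-fold lower, and P3h2, a prolyl 3-hydroxylase, had 0 UMIs in allograft cells and 41 in native cells, a call that depends on the 0.5 added. P4ha1 and P4ha2 are known targets of hypoxia signalling, and of 18 hypoxia genes counted in all mesenchymal cells 5 were called higher and 1 lower, where 13% and 11.4% of all genes were. The 4 highest were Pdk1, Pfkl, Eno1 and Bnip3, and the 4 lowest Mxi1, Adm, Ero1l and Aldoa. In cells without cartilage genes 2 were higher and 2 lower, where 16.5% and 14.6% of all genes were.

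In C1q macrophages the chain genes were far below the mesenchymal level, and in summed UMIs each was lower in the allograft than in native trachea, past 2-fold for Col3a1 and Col5a1. With the mean of per-cell CPM the direction of Col1a1 turned, to a log2 ratio of 0.20 from -0.63, and Col3a1, at -0.56, was no longer past 2-fold. Col3a1 stood at 32.1 CPM in allograft macrophages and 81.5 CPM in native ones, 2.54-fold lower (2.27 to 2.84). Serpinh1 was 4.94-fold lower (4.10 to 6.03), at 9.36 CPM and 46.4 CPM, and Pcolce and Col5a1 were 4.76-fold and 4.13-fold lower. Of the 10 genes 4 were called lower and 0 higher, where 8.37% and 6.15% of the 11678 genes counted were. The median log2 ratio of the 10 was -0.88, against 0.07 over all genes. Neutrophils also held less chain RNA in the allograft, where the 5 chains made 0.00241% of their UMIs, against 0.0279% in native trachea.

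These macrophage counts rested on few cells. In the allograft 13 of the 1784 macrophages, those with 10 or more collagen UMIs, held 66.2% of the class's collagen, and 20 of 1604 held 75.1% in native trachea. The same cells carried the fibroblast gene Dcn, at 3728 CPM in the allograft and 4511 CPM in native trachea, and their C1q was at 4960 CPM and 5619 CPM. Without them Col1a1 stood at 10.2 CPM in allograft macrophages and 14.7 CPM in native ones, Col3a1 was no longer called, and Col5a1, Serpinh1 and Pcolce were 2.97-fold, 3.88-fold and 3.96-fold lower, where 7.36% of genes were called lower and 6.49% higher. The spleen had no Col1a1, Col1a2 or Col3a1 UMI in its 97 macrophages, which allows up to 5.53 CPM.

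Against the lymphocytes of the same library, 4 of the 10 genes were 2-fold or more higher in allograft macrophages (Col1a1, Col1a2, P4ha1 and P4ha2) and 1 lower (Plod2), where 19.7% and 23.8% of 11007 genes were. The Col1a1 ratio, 11.8-fold higher (5.85 to 35.1), rested on 6 UMIs in the lymphocytes, and that of Col1a2 was 2.002, with 32 of the 37 lymphocyte UMIs in 2 cells. P4ha2 had only 1 UMI in the allograft lymphocytes and 2 in the native ones, so its calls in both tracheas rested on very few counts. In spleen it had 0 UMIs in macrophages and 3 in lymphocytes. Without cells of 10 or more collagen UMIs the Col1a1 ratio was 3.29 (1.59 to 9.83), at 10.2 CPM in macrophages and 2.89 CPM in lymphocytes. In that comparison 6 of the 9 genes counted were called higher and 1 lower, where 20.3% and 23.9% of genes were. The higher ones were Col1a1, Col1a2, Serpinh1, Pcolce, P4ha1 and P4ha2. All 438 allograft lymphocytes held only 6 Col1a1, 4 Pcolce and 1 P4ha2 UMIs. Their Col1a2 and Serpinh1 UMIs lay mostly in the 2 collagen-rich cells left out. All of these calls but that of P4ha1 therefore rested on few lymphocyte counts. In native trachea Col5a1, P4ha1 and P4ha2 were called higher and Plod2 lower, where 20.4% and 25.2% of 10821 genes were. Without those cells, the native ratios of Col1a1, Col1a2 and Col3a1 were 1.04, 1.05 and 1.10, with intervals that held 1, and Pcolce, P4ha1 and P4ha2 were the 3 of 9 genes called higher, where 20.1% of genes were called higher and 25.8% lower. Those of Col5a1 and Col5a2 were 1.46 and 1.55, on 3 lymphocyte UMIs each, and their intervals also held 1. The share of macrophages with a Col1a1 UMI was 7.68% in the allograft and 10.2% in native trachea, at median depths of 7193 and 6352 UMIs, beside 1.37% and 9.65% of lymphocytes, at 3975 and 4544 UMIs. Thinned to 1500 UMIs a cell, the macrophage shares were 2.86% and 2.91%, and the lymphocyte shares 0.233% and 1.97%.

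P4ha1 was called above lymphocytes in the macrophages of all 3 libraries. It stood at 71.0 CPM (66.7 to 75.4) in allograft macrophages, 50.6 CPM (46.5 to 55.0) in native ones and 49.8 CPM (32.8 to 72.4) in spleen ones, and at 22.2, 20.9 and 14.4 CPM in the lymphocytes of the same libraries. Macrophages were thus 3.17-fold (2.39 to 4.39), 2.39-fold (1.73 to 3.47) and 3.52-fold (2.25 to 5.14) above lymphocytes, and the ratio was 3.44 in the allograft and 2.48 in native trachea without the collagen-rich cells. In spleen P4ha1 and Col5a1 were the genes counted, and both were called higher, Col5a1 by the 0.5 added to its 2 macrophage UMIs (3.69 CPM in macrophages and 2.01 CPM in lymphocytes), where 16.8% of genes were called higher and 10% lower. Between libraries, the allograft macrophages were 1.40-fold above the native ones (1.26 to 1.56), under the threshold. Among the named classes of the allograft with more than 4 cells, the order ran from mesenchymal cells, at 136 CPM, over macrophages, at 71.0 CPM, to lymphocytes and neutrophils, at 22.2 and 18.8 CPM, whose intervals overlap.

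Among allograft macrophages, P4ha1 was unevenly spread. The 142 cells with 2 or more UMIs of Arg1 and Nos2, the arginine-using enzymes arginase and nitric oxide synthase, had 117 CPM (101 to 135), against 64.4 CPM (59.99 to 69.0) in the 1574 cells with neither. P4ha2 showed the same order, at 19.2 CPM (13.1 to 27.1) and 3.22 CPM (2.30 to 4.38). Cells with a UMI of the hypoxia genes Bnip3 or Egln3, 333 in all, had 95.1 CPM of P4ha1, against 63.4 CPM in the 1451 without. In native trachea the 72 cells of that kind had 51.9 CPM (35.5 to 73.3), against 50.6 CPM in the 1532 without. These are sums over cells of 1 library, and cells with more UMIs pass such a gate more easily: median depth was 11213 UMIs in the Arg1 or Nos2 cells and 6884 in those without.

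**Figure D5:**
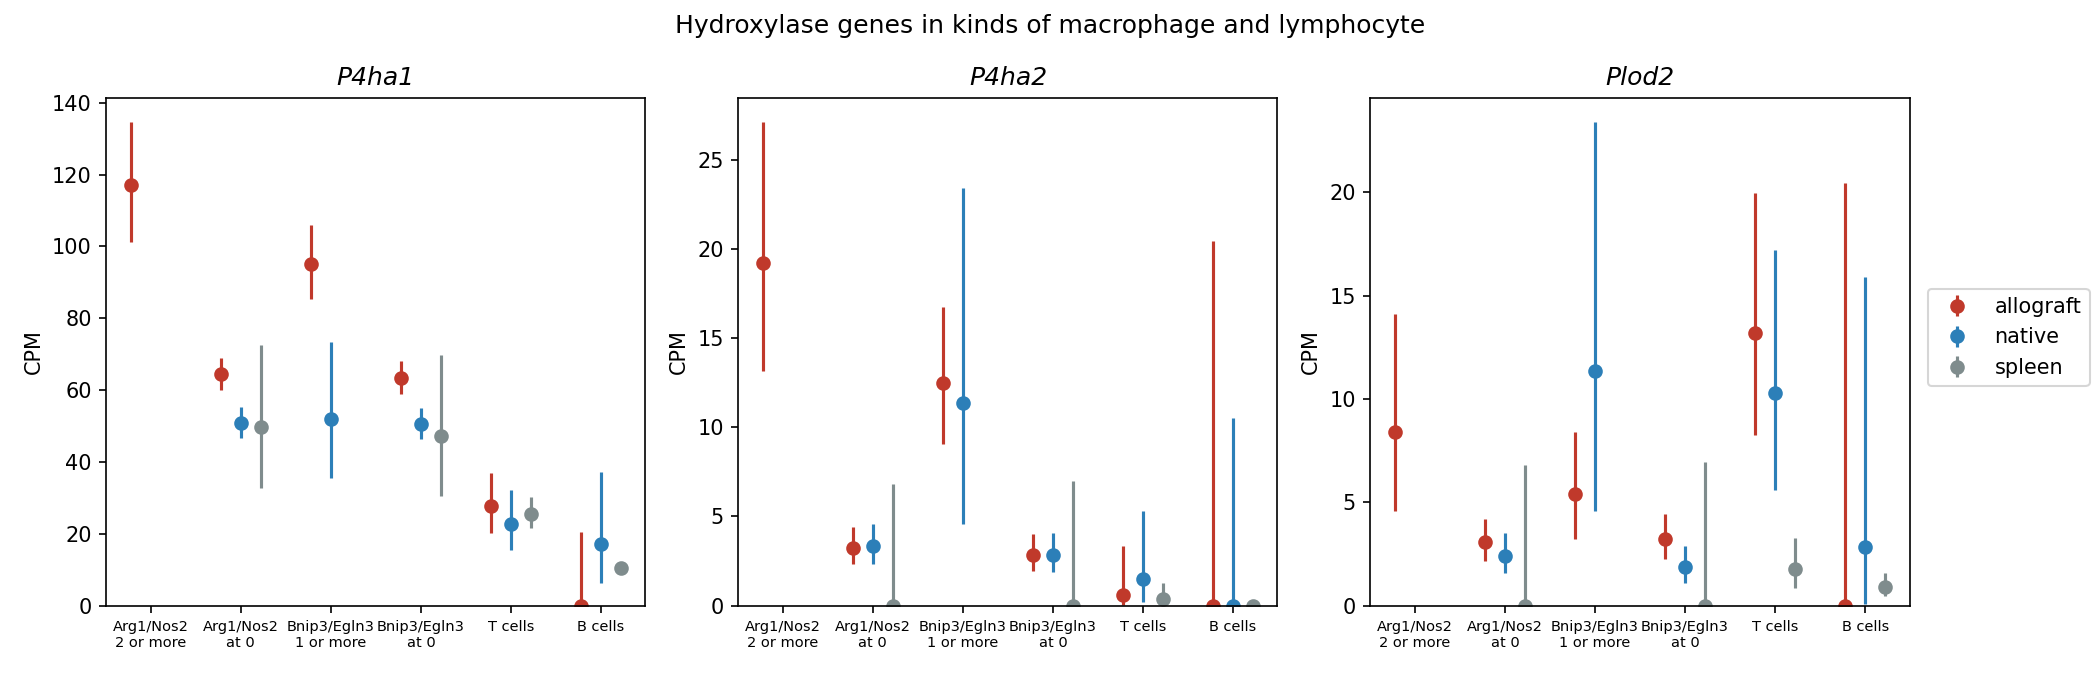
CPM of P4ha1, P4ha2 and Plod2 in kinds of C1q macrophage and of lymphocyte, with allograft, native and spleen libraries from left to right and 95% Poisson intervals; groups of fewer than 5 cells are not shown. P4ha1 and P4ha2 are highest in allograft macrophages with Arg1 or Nos2, at 117 and 19.2 CPM, and Plod2 is higher in T cells of both tracheas than in those of the spleen.

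Of 21 genes counted that are known to rise in hypoxia, 13 were called higher in allograft macrophages and 1 lower, where 6.15% and 8.37% of all genes were, and the median log2 ratio was 1.23. The 4 highest were Egln3, Vegfa, Bnip3 and Ankrd37, and the 4 lowest Adm, Ndrg1, Higd1a and Egln1. Vegfa stood at 202 CPM in allograft macrophages and 32.5 CPM in native ones, and Egln3 at 9.36 CPM and 0.915 CPM. The part of hypoxia in the P4ha1 level was not tested. The immediate early genes also differed, 5 of 9 being called lower and 0 higher, where 8.37% and 6.15% of all genes were, with a median log2 ratio of -1.09.

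Of the wider pathway list, 48 genes were counted in macrophages, of which 8 were called higher and 16 lower, where 6.15% and 8.37% of all genes were. The 6 highest were Col2a1, Fmod, Mmp14, Col11a1, Col11a2 and Loxl3. Mmp14, a membrane collagenase, stood at 252 CPM in allograft macrophages and 34.1 CPM in native ones. Cartilage chains were among the highest also here, with Col2a1 at 36.9 CPM and 1.01 CPM, and 19 allograft macrophages passed the cartilage gate against 2 native ones. The 6 lowest were Tnxb, Pcolce2, P3h2, Loxl2, Loxl1 and Col14a1.

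Between the lymphocytes of the tracheas, Col1a1, Col1a2 and Serpinh1 were called lower in the allograft and 0 genes higher, of 6 counted, where 8.3% of 8468 genes were called lower and 8.68% higher. Col1a1 stood at 2.83 CPM in allograft lymphocytes and 41.3 CPM in native ones. A single native lymphocyte held 65.3% of the class's collagen, and without cells of 10 or more collagen UMIs these levels were 2.89 CPM and 13.9 CPM. P4ha1 stood at 22.2 CPM and 20.9 CPM.

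Plod2 ran the other way from P4ha1 between the immune classes, 3.07-fold lower (1.79 to 4.98) in allograft macrophages than in allograft lymphocytes and 3.62-fold lower (1.76 to 6.99) in native ones. T cells carried it, at 13.2 CPM (8.26 to 19.97) in the allograft and 10.3 CPM (5.61 to 17.2) in native trachea, but 1.78 CPM (0.853 to 3.27) in spleen. It rested on 22, 14 and 10 UMIs, spread over 20, 11 and 10 cells.

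In the few cells gated on endothelial genes, Serpinh1 stood at 566 CPM (335 to 894) in 4 allograft cells and 185 CPM (131 to 256) in 21 native ones. The native ones went against that name: the 4 epithelial markers summed to 1834.5 CPM in them and the 4 endothelial markers to 1163 CPM. A single allograft cell held 6.90% of the P4ha2 and 6.51% of the Plod2 UMIs of its library. The epithelial gate took it by Epcam alone, with Krt8, Krt18 and Cdh1 at 0, while its 9 chondrocyte markers, all detected, held 1279 of its 45294 UMIs.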

How the data were processed

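Raw UMI counts per gene and cell were deposited by the authors as 1 matrix per source; per the file headers they came from Cell Ranger 3.1.0, and per the submitters' processing notes the build was mm10. No column of normalized values was used. The tracheal allograft, native trachea and spleen matrices held 4611, 4626 and 4856 barcodes with 26503045, 31415458 and 28318436 UMIs. How the 4 samples of a source were combined is not given in the sources used here.

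Cells with 500 or more genes and at most 20% mitochondrial UMIs were kept. Doublets were called with scrublet (scanpy 1.11.5) and removed: 31 allograft, 43 native and 9 spleen barcodes, or 0.672, 0.930 and 0.185%. If each matrix were 1 run, 3.69, 3.70 and 3.88% would be expected at 0.8% per 1000 barcodes, so some doublets may remain. Classes were set by gates in a fixed order: mesenchymal, C1q macrophages, lymphocytes (3 or more UMIs of T, B and NK cell genes and fewer than 3 of C1q), neutrophils, endothelial, epithelial and other. No clustering was used. UMIs were summed per class, 0.5 was added to each sum, and the ratio of CPM was taken with an exact conditional binomial 95% interval, tested on simulated data. Genes with 30 or more UMIs over both sums were counted. A count of 0 was given a limit of 3 counts. Shares of cells were also taken after thinning to 1500 UMIs.

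The genes and lists were chosen with earlier results of these data known. Besides the 10 genes, the text names the 6 highest and 6 lowest ratios of the pathway list, the 4 highest and 4 lowest of the hypoxia list and the 10 genes of most similar level; other pathway genes named were chosen after their values were seen. Gene positions are from GENCODE M21 (GRCm38). Alternatives covered scaling, averaging, cell filters, doublets, the UMI minimum and the gates. Python 3.11.15, numpy 2.4.6, scipy 1.17.1 and pandas 2.3.3 were used.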

Additional observations from a re-analysis of the deposited data

Results flagged for a closer look

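In summed UMIs, the 5 chain genes had ratios of opposite sign in the 2 cell classes, each a sum over 1 pooled library per source, and the difference between classes was not tested. The log2 ratio of allograft over native was 1.63 in mesenchymal cells and -0.63 in C1q macrophages for Col1a1, 1.46 and -0.96 for Col1a2, and 1.88 and -1.34 for Col3a1. For Col1a1 the sign in macrophages depended on the averaging, since the mean of per-cell CPM gave 0.20 there and 1.78 in mesenchymal cells. For Col5a1 it was 1.03 in mesenchymal cells and -2.05 in macrophages, and for Col5a2 1.59 and -0.80. Cells with 10 or more collagen UMIs held 66.2% of the collagen of allograft macrophages and 75.1% of that of native ones. The lower level was not particular to macrophages among the named leukocyte classes. The 5 chains made 0.0112% of UMIs in allograft macrophages and 0.0227% in native ones. These shares were 0.00241% and 0.0279% in neutrophils, and 0.00514% and 0.0148% in lymphocytes.

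Col5a1 was also seen in the spleen, a library outside the comparison of the tracheas. It had 283 UMIs there, or 10.2 CPM (9.002 to 11.4) over all 4570 cells, above the 0.108 CPM that 3 UMIs would give, and was found in 76 cells. Of these UMIs, 221 (78.1%) lay in the 714 spleen cells outside the named classes. Col1a1, Col1a2 and Col3a1 had 2, 5 and 2 UMIs in the whole spleen library.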

How the results depend on the processing

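No paired analysis was possible because cells could not be mapped to the 4 samples of a source, and for the same reason no replicate could be left out. Of the counts of genes under alternatives, 162 stayed within 1.5 times the value given above and 12 did not. The counts of the 10 genes in all mesenchymal cells, in cells without cartilage genes and in all cells were among them under each alternative run. No ratio of the 10 genes that was called changed its direction. In C1q macrophages 7 genes were lower, against 4, with doublets kept and with no cell filter. Above allograft lymphocytes, 8 genes were higher, against 4, with the mean of per-cell CPM. Above native lymphocytes, 7 were higher with median-of-ratios scaling and 9 with doublets kept or with no cell filter, against 3, and 0 were lower, against 1, without cells of 10 or more collagen UMIs, where Plod2 had too few UMIs to be counted. In cells with cartilage genes, 1 was higher (Col5a1), against 0, with a gate of 30 collagen UMIs, of 0.2% collagen UMIs or without genes of the set, and 3 were lower, against 0, without Comp. In the hypoxia list 0 genes were lower in mesenchymal cells, against 1, with the mean of per-cell CPM. Median-of-ratios scaling moved the median log2 ratio of all genes to 0.19 and 0.21 between macrophages and lymphocytes of the allograft and native trachea, against -0.25 and -0.27. It was 0.26, against -0.02, in cells with cartilage genes. Causes were not tested. Alternatives without 3 cells, by Pi16, Inmt and Ces1d, or without Comp were chosen after seeing the data. The 41 allograft mesenchymal cells limit the precision, since spread between animals is unknown.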
